A study of Mus musculus with 6 samples.

Results

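Imprinted genes are transcribed mainly or only from the copy inherited from 1 parent. A list of 40 mouse imprinted genes was followed here, and all 40 were found among the 55401 genes of each expression table. They were named from what is known of imprinting, with no threshold on levels, but earlier results of these data were known. The shares over all genes given below are therefore a background and no test of the list. The 40 genes fall into 17 imprinted clusters. RNA-seq of poly(A) RNA was available for mouse embryonic stem cells of the 46C line, with 2 libraries in each of 3 groups, and levels were given as TPM, a unit of transcript abundance that is scaled for transcript length and library size and keeps no record of read depth. All groups were grown with serum, LIF, Chir99021 and PD0325901 on gelatin. Per the labels, the control stably expressed the biotin tag alone, and the lines called Rbbp4 OE and Rbbp7 OE stably expressed biotin-tagged Rbbp4 or Rbbp7. The study's methods describe such lines as 46C cells with a lentiviral BirA biotin ligase transgene and a second lentiviral vector for the tag or the tagged gene. Rbbp4 and Rbbp7 encode closely related histone-binding proteins of chromatin complexes that include PRC2, NuRD and the CAF-1 chaperone. The comparison is therefore of imprinted gene levels in cells with an excess of either transcript against cells with the tag alone. Each group is a line of its own, so overexpression cannot be told apart from other differences between the lines. Per the same methods each line was drug-selected, and nothing in the labels says that its libraries came from separate cultures, so the p-values below measure the spread between libraries, which may be technical.

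Imprinted clusters are controlled by differentially methylated regions that are marked in the egg or the sperm and then kept through cell division in the embryo. The zinc finger protein ZFP57, with the corepressor TRIM28, binds a methylated hexamer at these regions and keeps them methylated. At a methylated copy the nearby promoter is usually silent, and several clusters also depend on a long noncoding RNA or on the insulator protein CTCF. Stem cells in culture are known to lose or gain imprints. Reads were summed over both parental copies in these tables, so a level says nothing about which copy it came from.

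The Rbbp4 level was 146 and 147 TPM in the control libraries, 270.0 and 271 TPM with Rbbp4 OE, and 144 and 143 TPM with Rbbp7 OE. The Rbbp7 level was 239 and 237 TPM in the control, 208 and 217 TPM with Rbbp4 OE, and 725 and 748 TPM with Rbbp7 OE. The increase of each gene in its own line passed the test used throughout, which was limma's moderated test on log2(TPM + 1) with Benjamini-Hochberg adjustment over the 14156 genes with a mean of at least 0.5 TPM (log2 fold change 0.88, adjusted p = 0.00173 for Rbbp4, and 1.63, adjusted p = 2.27e-04 for Rbbp7). Rbbp7 rose 3.09-fold and Rbbp4 1.84-fold, so Rbbp4 did not reach the study's threshold used below, which also asks for a fold over 2. Reads of a gene and of its transgene cannot be told apart in these tables. Folds given here and below were computed from the log2 fold change on this scale, so they are folds of TPM + 1. Both understate the change of genes with low levels. Between 19011 and 19691 genes were above 0 in a library, and the median absolute difference between the libraries of a group was 0.178 (log2 scale) in the control against 0.121 and 0.123 in the 2 overexpressing lines. The stem cell markers such as Pou5f1 and Sox2 summed to between 3992 and 4369 TPM in every library, those of primitive endoderm to at most 2.49 TPM, and those of neural cells and mesoderm to between 7.66 and 10.6 TPM. Of the 10 stem cell markers, Pou5f1 and Utf1 were higher and Nanog and Tfcp2l1 lower in Rbbp4 OE at an adjusted p under 0.05. Their median log2 fold change was -0.19, and 3.29% of all genes were higher and 8.07% lower. In Rbbp7 OE only Utf1 passed, as higher, where 0.198% of all genes were higher. The sum of 7 trophoblast markers was 36.4 and 40.3 TPM in the control, 48.8 and 49.3 TPM with Rbbp4 OE, and 45.5 and 46.3 TPM with Rbbp7 OE, above the control in every library of both lines. Its most abundant gene, Tfap2c, passed at an adjusted p under 0.05 in Rbbp4 OE (log2 fold change 0.44, adjusted p = 0.0385), and of the 5 trophoblast markers tested it was the only 1 that did. Of those 5, 3 had log2 fold changes above 0 and 2 below 0 in Rbbp4 OE, and 2 above and 3 below in Rbbp7 OE. Every library of both lines was below the control for Cdx2 (-0.52 in Rbbp4 OE, -0.53 in Rbbp7 OE) and Gata3 (-0.54, -0.49). For Eomes every library was above it (0.41, 0.84). The sum of 8 fibroblast markers was 6.89 and 8.21 TPM in the control, 10.7 and 13.4 TPM with Rbbp4 OE, and 18.4 and 10.8 TPM with Rbbp7 OE, so every library of both lines was above the control. With Rbbp4 OE the difference came from Thy1, a surface glycoprotein gene (log2 fold change 0.96, adjusted p = 0.0192). Without it the other 7 markers summed to 2.76 and 3.19 TPM in the control, 1.86 and 2.58 TPM with Rbbp4 OE, and 11.4 and 3.77 TPM with Rbbp7 OE, which is below the control in Rbbp4 OE. Of the 4 fibroblast markers tested, 2 had log2 fold changes above 0 and 2 below 0 in Rbbp4 OE, with a median of -0.03. In Rbbp7 OE replicate 1, 6.39 TPM of this sum came from the collagen gene Col3a1. Of these markers, 4 stayed under 1 TPM in every library, of which Lum and Postn were listed at 0 throughout. In bulk RNA, fewer cells of a type and less RNA per cell cannot be told apart, and the part of such cells in the results below was not tested.

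Promoter windows of 300 bases, running from 250 bases before to 50 bases after a transcription start, were taken from RefSeq (GRCm38.p6). They were found for 30 of the 40 members. The windows printed here belong to the 3 members that passed the study's threshold, Mest, Grb10 and Meg3, and to Plagl1, whose listed start lies inside the gene, and they are shown because each holds the ZFP57 hexamer. The hexamer is TGCCGC, which reads GCGGCA on the other strand, and capitals mark each match on either strand. All but the Meg3 window lie inside the span of their annotated gene, after its first listed start, and the Meg3 window ends in the first exon. The sequences run 5′ to 3′ on the strand of the gene.
Mest chr6:30737800-30738099 (+): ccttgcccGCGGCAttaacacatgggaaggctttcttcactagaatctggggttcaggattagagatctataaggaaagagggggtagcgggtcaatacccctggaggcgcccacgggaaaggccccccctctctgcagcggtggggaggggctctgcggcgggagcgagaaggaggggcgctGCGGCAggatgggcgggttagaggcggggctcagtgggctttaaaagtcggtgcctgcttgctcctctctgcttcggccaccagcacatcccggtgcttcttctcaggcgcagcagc
Grb10 chr11:12037371-12037670 (-): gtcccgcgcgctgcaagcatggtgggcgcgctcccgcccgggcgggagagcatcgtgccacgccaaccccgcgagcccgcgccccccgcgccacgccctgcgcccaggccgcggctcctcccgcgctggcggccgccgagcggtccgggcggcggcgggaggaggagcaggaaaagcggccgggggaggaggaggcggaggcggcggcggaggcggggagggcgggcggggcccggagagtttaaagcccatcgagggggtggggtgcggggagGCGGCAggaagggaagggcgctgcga
Meg3 chr12:109540746-109541045 (+): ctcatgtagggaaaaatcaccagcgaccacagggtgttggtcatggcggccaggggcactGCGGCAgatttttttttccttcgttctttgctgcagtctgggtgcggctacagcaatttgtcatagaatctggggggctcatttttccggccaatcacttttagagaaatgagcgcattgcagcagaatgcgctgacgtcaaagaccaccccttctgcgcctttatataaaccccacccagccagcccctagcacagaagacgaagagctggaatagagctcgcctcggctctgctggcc
Plagl1 chr10:13090582-13090881 (+): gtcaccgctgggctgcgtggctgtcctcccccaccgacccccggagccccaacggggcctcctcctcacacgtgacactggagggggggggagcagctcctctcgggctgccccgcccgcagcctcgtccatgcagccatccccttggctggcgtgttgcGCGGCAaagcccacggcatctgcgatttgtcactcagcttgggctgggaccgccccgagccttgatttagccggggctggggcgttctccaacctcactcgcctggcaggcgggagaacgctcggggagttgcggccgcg

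The Mest window held 2 matches and the others 1 each, all on the strand opposite to TGCCGC as written. CpG dinucleotides numbered 17 in the Mest window, 45 in that of Grb10, 13 in that of Meg3 and 26 in that of Plagl1. Mest, Grb10 and Meg3 also had windows without a match, which are not printed. Among the members with a window, 10 of 30 (33.3%) had the hexamer in at least 1 of their windows, against 13.1% of the 27025 genes with a window. Those 10 include Copg2 and Nnat, which passed in neither line, and Igf2, Nap1l5 and Zim1, which were too low to test. Rian, Mirg, Ube3a and Zrsr1, which passed at an adjusted p under 0.05 in Rbbp4 OE, had no match in their windows. By window the share was 24.4% of 45 windows of members, some of which overlap, against 11.6% of all 32851 windows. A second hexamer differing in its first base, AGCCGC, was in 13.3% of the windows of members and in 16.9% of all windows. The windows of members had a median of 13 CpG dinucleotides and all windows a median of 7, so the groups also differed in base composition. These matches are letters in a window and no measure of binding.

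Most of the list was expressed at a low level, and the plot of the level of all 40 members in each library shows how far they spread. The filter was passed by 27 members from 15 clusters. The other 13 reached at most 0.69 TPM in any library and were not tested. These were Klf14, Asb4, Nap1l5, Igf2, Kcnq1, Kcnq1ot1, Usp29, Zim1, Magel2, Rtl1, Airn, Peg13 and Rasgrf1, and 5 of them were listed at 0 in at least 4 libraries. A mean of at least 10 TPM over the 6 libraries was reached by 13 members, and only Meg3, Rian and Gnas reached a mean of at least 100 TPM. The levels of all members summed to 591 and 642 TPM in the control, 895 and 879 TPM with Rbbp4 OE, and 799 and 798 TPM with Rbbp7 OE. Both lines lay above both control libraries in that sum, which is dominated by the most abundant members.

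**Figure D1:**
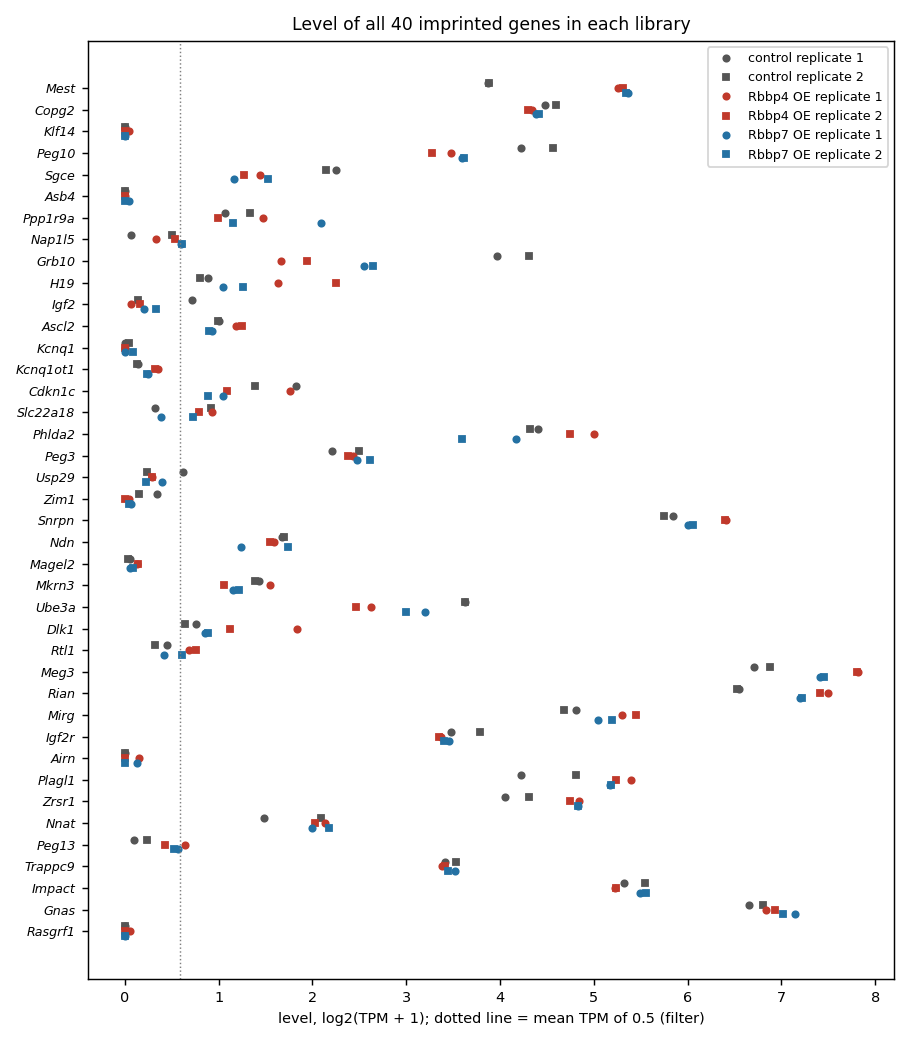
Level of each of the 40 imprinted genes in each of the 6 libraries, as log2(TPM + 1), with colour for the group, circles for replicate 1 and squares for replicate 2; the dotted line marks the filter of a mean of 0.5 TPM. Meg3, Rian and Gnas stand at the right, 13 genes lie at or near the left edge, and the control points of Mest and Grb10 are set apart from those of both lines.

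In Rbbp4 OE, 3 of the 27 tested members passed the study's threshold, an adjusted p under 0.01 with more than a 2-fold change, where 0.516% of all tested genes did. Mest and Meg3 were higher and Grb10 was lower. At an adjusted p under 0.05 with no minimum fold, 11 of 27 members passed, against 11.4% of all genes, from 8 clusters. Of these, 8 were higher (Mest, H19, Meg3, Rian, Plagl1, Mirg, Zrsr1 and Snrpn), where 3.29% of all genes were higher, and 3 were lower (Grb10, Ube3a and Peg10), where 8.07% of all genes were lower. Over all genes this direction depended on the scaling, since 466 rose and 1143 fell on the deposited TPM scale and 716 rose and 712 fell after median-of-ratios scaling. Among the members 8 were higher and 3 lower under both scalings, and 7 and 3 after quantile normalization. With a pseudocount of 5 in place of 1 they were 6 and 4, and with only the 2 groups compared in the fit 4 and 1. The median log2 fold change was 0.16 over the tested members and -0.08 over all genes.

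In Rbbp7 OE, only Mest of the 27 tested members passed the study's threshold, where 0.0353% of all genes did. At an adjusted p under 0.05, 4 members passed, against 0.487% of all genes. Mest, Meg3 and Rian were higher, where 0.198% of all genes were higher, and Grb10 was lower, where 0.29% were lower. All 4 had also passed, with the same sign, in Rbbp4 OE, but both comparisons use the same control libraries. The libraries of the groups did not overlap for 21 members in Rbbp4 OE, against 57.9% of all genes, and for 20 members in Rbbp7 OE, against 44.5%. The median log2 fold change in Rbbp7 OE was 0.09 over the tested members and -0.0037 over all genes. Leaving out 1 library costs a residual degree of freedom, and with any of the 6 left out no member passed the study's threshold in either line, while the count at an adjusted p under 0.05 fell to between 2 and 10 in Rbbp4 OE and to 0 or 1 in Rbbp7 OE.

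**Figure D2:**
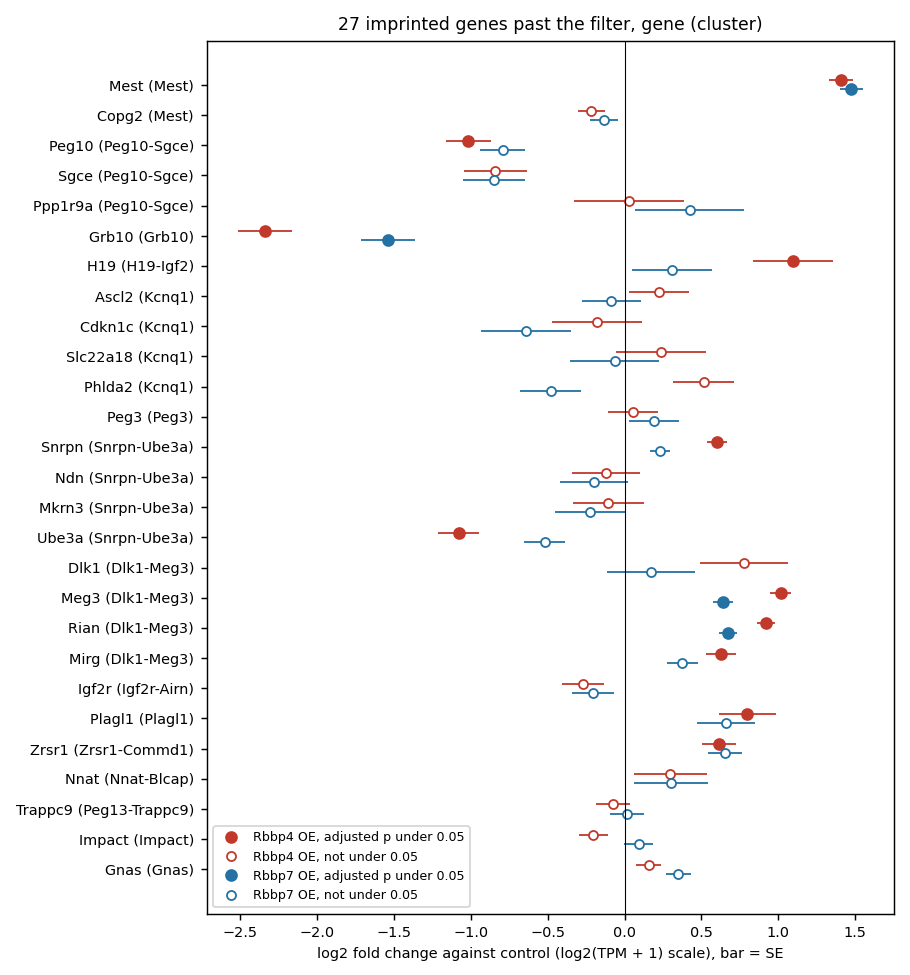
Log2 fold change against control, on the log2(TPM + 1) scale, of the 27 imprinted genes past the filter, in Rbbp4 OE (red) and Rbbp7 OE (blue), with bars for the standard error and filled circles for an adjusted p under 0.05. Mest lies at 1.41 and 1.48 and Grb10 at -2.34 and -1.54, and the 3 noncoding RNAs Meg3, Rian and Mirg all lie right of 0.

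Mest, a paternally expressed gene for an enzyme-like protein of the alpha/beta hydrolase fold, had nearly the same level in the 2 libraries of each group. It was at 13.6 and 13.8 TPM in the control, 37.2 and 38.7 TPM with Rbbp4 OE, and 40.1 and 39.6 TPM with Rbbp7 OE. Every library of both lines lay above both control libraries, and the lines hardly differed from each other. The gene (ENSMUSG00000051855.15, chromosome 6, 30723547 to 30748465, plus strand, GRCm38) rose 2.65-fold in Rbbp4 OE (log2 fold change 1.41, SE 0.076, adjusted p = 0.00173) and 2.78-fold in Rbbp7 OE (1.48, SE 0.076, adjusted p = 0.00285). Between the lines the log2 difference, Rbbp4 OE minus Rbbp7 OE, was -0.07 (SE 0.076, adjusted p = 0.656). With any 1 library left out, the adjusted p in Rbbp4 OE was between 0.0188 and 0.0456. In Rbbp7 OE it was 0.084 without Rbbp4 OE replicate 1, 0.0819 without Rbbp4 OE replicate 2 and 0.0708 without Rbbp7 OE replicate 1, with the fold change almost the same (1.47 to 1.48).

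Copg2, which encodes a coat protein subunit of Golgi vesicles and is transcribed towards Mest, passed in neither line. Its level was 21.3 and 23.2 TPM in the control, 19.3 and 18.6 TPM with Rbbp4 OE, and 19.9 and 20.4 TPM with Rbbp7 OE. Both lines lay slightly below the control, with log2 fold changes of -0.22 (SE 0.089, adjusted p = 0.172) and -0.13 (adjusted p = 0.53). As a ratio of TPM, Mest to Copg2 was 0.639 and 0.594 in the control and between 1.93 and 2.08 in the other 4 libraries. The transcripts of the 2 genes share 912 bases on opposite strands, and whether the counting used strand is not given in the sources used here, so some reads of this stretch may be assigned to either gene. Klf14, a transcription factor gene of the cluster, was at most at 0.03 TPM. Of the nearest tested coding genes on each side, Cep41 at 29.8 kb had log2 fold changes of -0.14 in Rbbp4 OE and -0.05 in Rbbp7 OE. Within 1 Mb on either side, 12 genes that are not members of the list were tested, of which 2 were lower in Rbbp4 OE at an adjusted p under 0.05, namely Mkln1 at 650 kb (log2 fold change -0.59, adjusted p = 0.0482) and Ahcyl2, which was named after its value was seen. In Rbbp7 OE 0 of them passed in limma's test, and 0 were at an unadjusted p under 0.05, where 15.4% of all genes were. Podxl, at 771 kb, had an adjusted p of 0.389 in Rbbp4 OE.

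Grb10, an adaptor that restrains signalling from the insulin and IGF receptors, was the member with the largest decrease. Its level was 14.7 and 18.9 TPM in the control, 2.16 and 2.84 TPM with Rbbp4 OE, and 4.86 and 5.27 TPM with Rbbp7 OE. The 3 groups did not overlap, with Rbbp7 OE between the control and Rbbp4 OE. Grb10 (ENSMUSG00000020176.17, chromosome 11, 11930508 to 12038683, minus strand) fell 5.06-fold in Rbbp4 OE (log2 fold change -2.34, SE 0.18, adjusted p = 0.00445) and 2.91-fold in Rbbp7 OE (-1.54, SE 0.18, adjusted p = 0.037). The difference between the lines, -0.80 (SE 0.18), did not pass (adjusted p = 0.125). Without Rbbp4 OE replicate 2 the adjusted p in Rbbp4 OE was 0.0706, and the other 5 fits with 1 library left out stayed under 0.05. In Rbbp7 OE the adjusted p exceeded 0.05 with any library left out, from 0.125 without control replicate 1 to 0.316 without Rbbp7 OE replicate 1.

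Ddc, which encodes an enzyme of dopamine and serotonin synthesis, lies 32.4 kb from Grb10 and is imprinted with it in some tissues. It was at 21.4 and 25.9 TPM in the control, 13.5 and 15.6 TPM with Rbbp4 OE, and 18.2 and 19.03 TPM with Rbbp7 OE. All 4 libraries of the lines were below the control. The decrease in Rbbp4 OE passed at an adjusted p under 0.05 (log2 fold change -0.66, SE 0.13, adjusted p = 0.0294), and that in Rbbp7 OE was -0.32 (adjusted p = 0.309). Leaving out any library other than control replicate 1 raised the adjusted p in Rbbp4 OE above 0.05, to at most 0.17. On the same side Fignl1 at 122 kb moved by -0.13 (log2) with Rbbp4 OE and by 0.04 with Rbbp7 OE. On the other side Cobl at 198 kb had -0.19 and 0.10, and the next tested gene, Vstm2a, was 4220 kb away. Ddc was the only 1 of the 4 genes outside the list tested within 1 Mb that passed, and it did so only in Rbbp4 OE; the difference between the lines was -0.34 (adjusted p = 0.231).

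**Figure D3:**
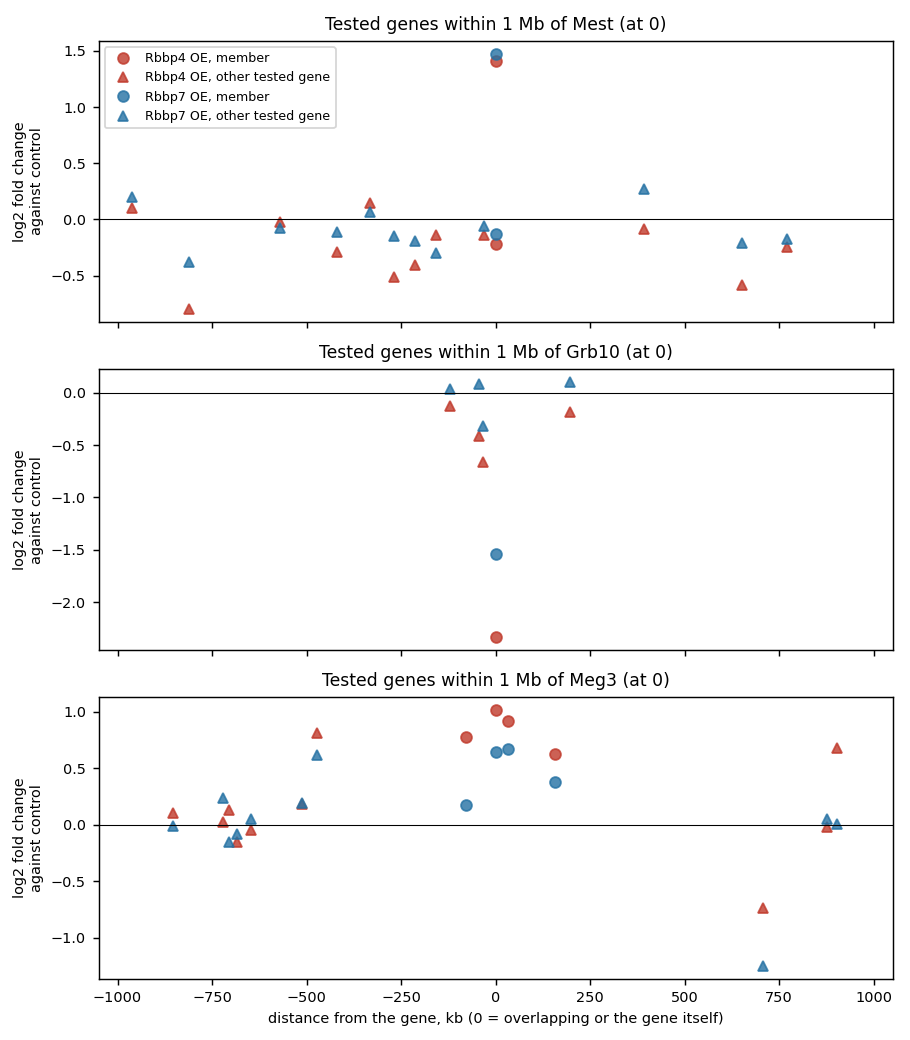
Log2 fold change against control of every tested gene within 1 Mb of Mest, Grb10 and Meg3, plotted against the distance in kb, with circles for imprinted members and triangles for other genes and with Rbbp4 OE in red and Rbbp7 OE in blue. Mest stands alone above its neighbours, Grb10 lies below all 4 of its neighbours, and Meg3 lies among other members of its cluster that are also above 0.

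The Dlk1-Meg3 cluster gave the highest levels of the list and the broadest increase. Its maternal copy makes the long noncoding RNAs Meg3, Rian and Mirg, of which Rian hosts small nucleolar RNAs and Mirg hosts microRNAs, while its paternal copy makes Dlk1, a Notch-like transmembrane protein, and the retrotransposon-derived Rtl1. The summed level of the 5 members was 224 and 233 TPM in the control, 445 and 436 TPM with Rbbp4 OE, and 348 and 359.8 TPM with Rbbp7 OE. The groups did not overlap in this sum, with Rbbp7 OE between the other two.

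Meg3 was at 104 and 116 TPM in the control, 224 and 222 TPM with Rbbp4 OE, and 169 and 175 TPM with Rbbp7 OE. Both lines lay above the control, and Rbbp4 OE lay above Rbbp7 OE. Meg3 (ENSMUSG00000021268.17, chromosome 12, 109541001 to 109571726, plus strand) rose 2.02-fold in Rbbp4 OE (log2 fold change 1.02, SE 0.067, adjusted p = 0.00281), just past the fold of 2, and 1.56-fold in Rbbp7 OE (0.64, SE 0.067, adjusted p = 0.0329). The log2 difference between the lines was 0.38 (SE 0.067, adjusted p = 0.101). Of the alternatives, it passed at 0.05 only after correction for GC content and length, which was chosen after seeing the data (adjusted p = 0.0334 at the lowest). Without Rbbp4 OE replicate 2 the adjusted p in Rbbp4 OE was 0.072, and in Rbbp7 OE it was between 0.0801 and 0.236 with any library left out.

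Rian rose in both lines, like Meg3. It was at 92.2 and 91.2 TPM in the control, 179.9 and 169 TPM with Rbbp4 OE, and 145 and 148 TPM with Rbbp7 OE. The groups did not overlap and stood in the same order as for Meg3. The log2 increase was 0.92 (SE 0.056, adjusted p = 0.00244) in Rbbp4 OE, a fold of 1.89 that stayed under 2, and 0.67 (SE 0.056, adjusted p = 0.0229) in Rbbp7 OE. In Rbbp4 OE the adjusted p was at most 0.0404 with any library left out, and in Rbbp7 OE it was between 0.0773 and 0.157.

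Mirg was at 26.99 and 24.7 TPM in the control, 38.3 and 42.6 TPM with Rbbp4 OE, and 32.1 and 35.6 TPM with Rbbp7 OE. Its groups did not overlap either. The increase in Rbbp4 OE was 0.63 (SE 0.099, adjusted p = 0.0188) and the value in Rbbp7 OE 0.38 (adjusted p = 0.184). Without Rbbp4 OE replicate 2 the adjusted p in Rbbp4 OE was 0.153, and it exceeded 0.05 with any library other than control replicate 1 left out. The ratio of Rian to Meg3, on TPM and thus per length, stayed between 0.762 and 0.888 over the 6 libraries, and that of Mirg to Meg3 was 0.26 and 0.212 in the control and between 0.171 and 0.204 in the lines.

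Dlk1 from the other parental copy was low, at 0.69 and 0.56 TPM in the control, 2.57 and 1.17 TPM with Rbbp4 OE, and 0.81 and 0.85 TPM with Rbbp7 OE. All 4 libraries of the lines were above the control, but the replicates of Rbbp4 OE were far apart. Its log2 fold changes, 0.78 (SE 0.29, adjusted p = 0.133) and 0.17 (adjusted p = 0.829), did not pass. Rtl1 was below the filter, at 0.37 and 0.25 TPM in the control, 0.61 and 0.69 TPM with Rbbp4 OE, and 0.34 and 0.52 TPM with Rbbp7 OE. Dio3, the thyroid hormone deiodinase gene at the far end of the domain, 707 kb from Meg3, was at 3.40 and 2.20 TPM in the control, 1.24 and 1.25 TPM with Rbbp4 OE, and 0.86 and 0.34 TPM with Rbbp7 OE. It was lower in every library of both lines, with log2 fold changes of -0.74 (adjusted p = 0.123) and -1.25 (adjusted p = 0.128). Begain, 473 kb away on the side of Dlk1, had 0.81 (adjusted p = 0.064) in Rbbp4 OE, and Ppp2r5c, beyond Dio3, had -0.02. Of the 10 genes tested within 1 Mb that are not members of the list, 0 passed in limma's test in either line, with 3 at an unadjusted p under 0.05 in Rbbp4 OE and 2 in Rbbp7 OE. Over all genes 29.6% and 15.4% were under that unadjusted p in the 2 lines.

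**Figure D4:**
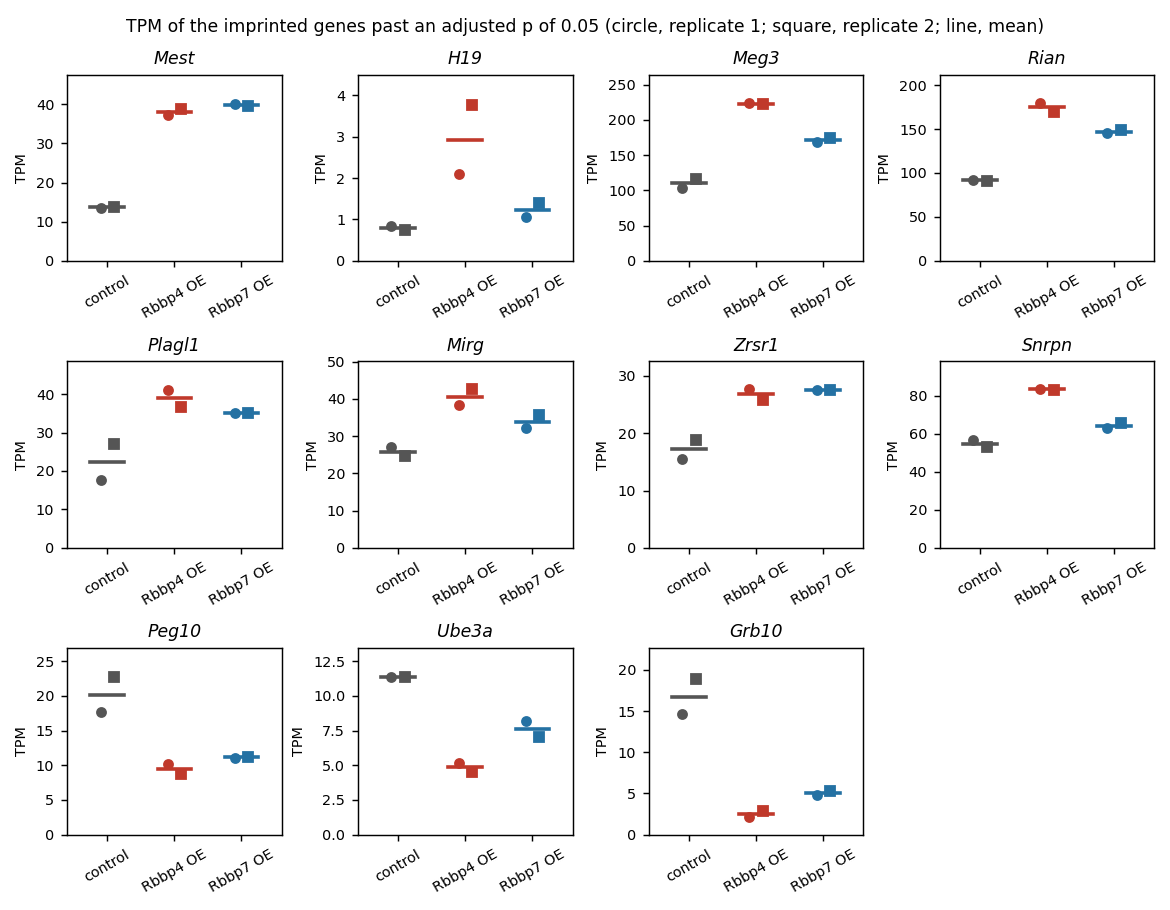
TPM of the 11 imprinted genes that passed an adjusted p of 0.05 against control, by group, with a circle for replicate 1, a square for replicate 2 and a line for the mean; each panel starts at 0 and has its own scale. For Mest, Meg3, Rian and Grb10 the libraries of both lines are clear of the control, whereas the H19 replicates of Rbbp4 OE are far apart.

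H19, the maternally expressed noncoding RNA that shares an imprinting control region with the growth factor gene Igf2, was at 0.85 and 0.74 TPM in the control, 2.10 and 3.76 TPM with Rbbp4 OE, and 1.07 and 1.39 TPM with Rbbp7 OE. Both lines were above the control, with a wide spread in Rbbp4 OE. The log2 increase of 1.10 with Rbbp4 OE (SE 0.26, adjusted p = 0.0485) was just under the threshold and was not under it with any library left out, where the adjusted p was between 0.0895 and 0.169. In Rbbp7 OE the value was 0.31 (adjusted p = 0.621). Igf2 itself was between 0.05 and 0.64 TPM and its highest value was in control replicate 1.

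The Snrpn-Ube3a cluster held members that moved in opposite directions in Rbbp4 OE. Snrpn, a paternally expressed gene for a spliceosomal protein, was at 56.6 and 52.8 TPM in the control, 83.7 and 83.1 TPM with Rbbp4 OE, and 63.1 and 65.6 TPM with Rbbp7 OE. The groups did not overlap, and Rbbp4 OE was highest. It rose in Rbbp4 OE with a log2 fold change of 0.60 (SE 0.066, adjusted p = 0.00884), and the value in Rbbp7 OE was 0.23 (adjusted p = 0.201). Snrpn shares 206 bases with Snurf, which lies on the same transcript, and Snurf was listed at 0 in 3 libraries and at 0.46, 29.9 and 31.4 TPM in the others. How reads were assigned between these genes was not tested. The adjusted p of Snrpn in Rbbp4 OE was 0.0895 without replicate 1 of that line, 0.119 without its replicate 2, 0.0511 without Rbbp7 OE replicate 1 and 0.0518 without Rbbp7 OE replicate 2.

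Ube3a encodes an E3 ubiquitin ligase that is expressed from both copies in most cells and only from the maternal copy in neurons. It was at 11.3 TPM in both control libraries, 5.17 and 4.52 TPM with Rbbp4 OE, and 8.22 and 7.01 TPM with Rbbp7 OE. Both lines were below the control, with Rbbp4 OE lowest. In Rbbp4 OE it fell 2.11-fold (log2 fold change -1.08, SE 0.14, adjusted p = 0.0113), in Rbbp7 OE the value was -0.52 (adjusted p = 0.182), and between the lines it was -0.56 (adjusted p = 0.135). With any library other than control replicate 1 left out, the adjusted p in Rbbp4 OE exceeded 0.05, up to 0.126 without Rbbp4 OE replicate 2. The antisense transcript Snhg14, which is known to silence paternal Ube3a in neurons and shares 1804 bases with it, was at 8.53 and 6.82 TPM in the control, 8.58 and 8.92 TPM with Rbbp4 OE, and 6.98 and 7.96 TPM with Rbbp7 OE, and did not pass (log2 fold change 0.18, adjusted p = 0.472 in Rbbp4 OE). Without strand, reads of this pair cannot be told apart. As a ratio of TPM, Snrpn to Ube3a was 4.99 and 4.66 in the control, 16.2 and 18.4 with Rbbp4 OE, and 7.68 and 9.36 with Rbbp7 OE. Ndn and Mkrn3, which code for a MAGE family protein and a RING finger protein, did not pass in either line, and Magel2 was at most at 0.10 TPM.

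Peg10, a paternally expressed gene derived from a retrotransposon and needed for the placenta, was at 17.7 and 22.7 TPM in the control, 10.2 and 8.69 TPM with Rbbp4 OE, and 11.1 and 11.2 TPM with Rbbp7 OE. Every library of the lines was below the control. It fell 2.02-fold in Rbbp4 OE (log2 fold change -1.02, SE 0.15, adjusted p = 0.0156), and the value in Rbbp7 OE was -0.79 (adjusted p = 0.104). The adjusted p in Rbbp4 OE exceeded 0.05 with any library other than control replicate 1 left out, up to 0.149 without Rbbp4 OE replicate 2. Sgce, the epsilon-sarcoglycan gene that starts back to back with Peg10, was described after its values were seen, at 3.75 and 3.43 TPM in the control, 1.72 and 1.41 TPM with Rbbp4 OE, and 1.24 and 1.89 TPM with Rbbp7 OE. It was lower in every library of both lines, with log2 fold changes of -0.84 (SE 0.20, adjusted p = 0.0513) and -0.85 (adjusted p = 0.162), and passed in neither. Ppp1r9a, a neuronal actin-binding protein gene, overlapped between the groups, and Asb4 was at most at 0.03 TPM.

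Plagl1 and Zrsr1 are paternally expressed genes for a zinc finger transcription factor and a splicing factor. Plagl1 was at 17.7 and 26.98 TPM in the control, 41.0 and 36.7 TPM with Rbbp4 OE, and 35.1 and 35.2 TPM with Rbbp7 OE. The lines were above the control, whose own libraries were far apart. The log2 fold change was 0.80 (SE 0.19, adjusted p = 0.0476) in Rbbp4 OE and 0.66 (adjusted p = 0.20) in Rbbp7 OE, and the former was 0.51 without control replicate 1 and 1.09 without control replicate 2, with an adjusted p of up to 0.24 without Rbbp4 OE replicate 1. Zrsr1 was at 15.6 and 18.9 TPM in the control, 27.7 and 25.9 TPM with Rbbp4 OE, and 27.5 TPM in both Rbbp7 OE libraries. Again every library of the lines was higher. The values were 0.61 (SE 0.11, adjusted p = 0.0255) in Rbbp4 OE and 0.65 (SE 0.11, adjusted p = 0.0902) in Rbbp7 OE, and the difference between the lines was -0.04 (adjusted p = 0.878). Leaving out a library of Rbbp4 OE or of Rbbp7 OE raised the adjusted p of Zrsr1 in Rbbp4 OE above 0.05, to at most 0.162. Zrsr1 lies in Commd1 on the opposite strand and shares 221 bases with it.

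The clusters of Kcnq1, Igf2r, Gnas, Peg3, Impact, Nnat and Trappc9 had no member that passed in either line. Phlda2, a maternally expressed gene that limits growth of the placenta, was at 20.1 and 18.99 TPM in the control, 31.1 and 25.9 TPM with Rbbp4 OE, and 17.0 and 11.1 TPM with Rbbp7 OE. Its libraries lay above the control in Rbbp4 OE and below it in Rbbp7 OE, with log2 fold changes of 0.51 (adjusted p = 0.15) and -0.48 (adjusted p = 0.328) and a log2 difference between the lines of 1.00 (SE 0.20, adjusted p = 0.119). The other members of the Kcnq1 cluster past the filter, Ascl2, Cdkn1c and Slc22a18, were between 0.25 and 2.53 TPM. Kcnq1ot1, the paternal noncoding RNA of that cluster, was below the filter at 0.10 and 0.09 TPM in the control, 0.28 and 0.25 TPM with Rbbp4 OE, and 0.19 and 0.18 TPM with Rbbp7 OE.

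Gnas, which encodes the stimulatory G protein alpha subunit, was at 99.6 and 111 TPM in the control, 114 and 121 TPM with Rbbp4 OE, and 140.2 and 129 TPM with Rbbp7 OE, with a log2 fold change of 0.16 (adjusted p = 0.256) and 0.35 (adjusted p = 0.149). Impact, a regulator of the GCN2 stress kinase, was at 39.0 and 45.7 TPM in the control, 36.4 and 36.7 TPM with Rbbp4 OE, and 44.1 and 46.1 TPM with Rbbp7 OE. Its change was -0.20 (adjusted p = 0.212) in Rbbp4 OE, and in Rbbp7 OE it overlapped the control. Igf2r, the receptor that clears IGF2, was at 10.1 and 12.8 TPM in the control, 9.36 and 9.17 TPM with Rbbp4 OE, and 9.97 and 9.56 TPM with Rbbp7 OE, slightly below the control in both lines (adjusted p = 0.248 and 0.534). Its antisense RNA Airn was at most at 0.11 TPM.

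Trappc9, a subunit of a vesicle tethering complex, was at 9.65 and 10.5 TPM in the control, 9.39 and 9.64 TPM with Rbbp4 OE, and 10.5 and 9.90 TPM with Rbbp7 OE. Peg3, a zinc finger gene, was at 3.61 and 4.65 TPM in the control, 4.40 and 4.21 TPM with Rbbp4 OE, and 4.56 and 5.11 TPM with Rbbp7 OE, and overlapped between each line and the control. Nnat, a small membrane protein gene, was at 1.79 and 3.26 TPM in the control, 3.39 and 3.09 TPM with Rbbp4 OE, and 2.99 and 3.53 TPM with Rbbp7 OE. The log2 fold changes of these 3 genes were between -0.08 and 0.30, and none passed. The 8 tested members whose values were not required by the naming rule had levels of 0.25 to 3.75 TPM and adjusted p-values of at least 0.0513 in Rbbp4 OE and 0.162 in Rbbp7 OE.

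Grouped by the parental copy that is known to be expressed, the paternally expressed members counted 4 higher, 1 lower and 7 not passing of 12 tested in Rbbp4 OE, with a median log2 fold change of 0.18. The maternally expressed members counted 4 higher, 2 lower and 8 not passing of 14, with a median of 0.13. In Rbbp7 OE the counts were 1 higher and 0 lower of 12, with a median of 0.18, and 2 higher and 1 lower of 14, with a median of -0.07. Gnas, whose expressed copy depends on the isoform, was in neither group. Ube3a was counted as maternally expressed and is 1 of the 2 lower in Rbbp4 OE, although outside neurons it is mostly expressed from both copies. Over all genes, 3.29% were higher and 8.07% lower in Rbbp4 OE, with a median of -0.08. In Rbbp7 OE the shares were 0.198% and 0.29%, with a median of -0.0037. These shares also stand beside the counts by germline below. Both kinds held members that passed in each direction in Rbbp4 OE. A further grouping was made after the values were seen, by the germline in which the controlling region is methylated. The 5 tested members of the H19-Igf2 and Dlk1-Meg3 clusters, whose controlling regions are methylated in sperm, were all above 0 in Rbbp4 OE, with 4 passing and a median of 0.92, and had a median of 0.38 in Rbbp7 OE, with 2 passing. The 22 members of clusters methylated in the egg had medians of -0.02 and -0.07, with 4 higher and 3 lower in Rbbp4 OE. As 4 of the 5 come from 1 cluster, they are not independent. Genes near that cluster but outside the list were not counted. Of these, Dio3 at the far end of the Dlk1-Meg3 domain had log2 fold changes of -0.74 in Rbbp4 OE and -1.25 in Rbbp7 OE. Begain on the side of Dlk1 had 0.81 and 0.62, and neither gene passed in either line.

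No member passed either threshold between Rbbp4 OE and Rbbp7 OE directly, where 0.0494% and 0.304% of all genes passed in limma's test. At an unadjusted p under 0.05 there were 9 members of 27, and 2685 of the 14156 genes. The libraries of the lines did not overlap for 21 members, against 54.7%. With 2 libraries a group, a p that misses the threshold does not show that the lines were alike, and the 7 members that passed only in Rbbp4 OE are not shown to differ between the lines.

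Of 20 regulators of imprinting, which included ZFP57, TRIM28, the DNA methyltransferases, CTCF and PRC2 subunits, all were expressed, 4 were lower in Rbbp4 OE (Ctcf, and also Suz12, Ezh2 and Trim28, which were named after their values were seen) and 0 were higher, where 8.07% of all genes were lower and 3.29% higher. After median-of-ratios scaling, which gave 716 higher and 712 lower genes over the whole table in place of 466 and 1143, Ctcf and Suz12 were lower and Dnmt3b, a DNA methyltransferase gene, was higher. With any library other than control replicate 1 left out, 0 of the 20 regulators passed in limma's test, with 4 to 8 at an unadjusted p under 0.05. In Rbbp7 OE 0 passed in limma's test, with 3 at an unadjusted p under 0.05, where 15.4% of all genes were. Ctcf was at 68.2 and 88.1 TPM in the control, 50.3 and 46.8 TPM with Rbbp4 OE, and 60.9 and 67.6 TPM with Rbbp7 OE. The lines lay below both control libraries, which were far apart from each other. With Rbbp4 OE its log2 change was -0.67 (SE 0.13, adjusted p = 0.0307), and it exceeded 0.05 with any library other than control replicate 1 left out, up to 0.201 without Rbbp4 OE replicate 2. The other 3 fell by at most 0.49 on the log2 scale. The median of the 20 regulators was -0.15 beside -0.08 over all genes. Of 24 tested genes among 35 others that are imprinted or border these clusters, 1 was higher in Rbbp4 OE (Cd81, in the Kcnq1 domain) and 2 were lower (Ddc and Nap1l4, the last again named after its value was seen, like Cd81), against 11.4% of all genes in either direction. In Rbbp7 OE 0 of these genes passed in limma's test, with 6 at an unadjusted p under 0.05, where 15.4% of all genes were.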

How the data were processed

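Per the labels and the study's methods, poly(A) RNA was sequenced in 6 libraries (3 groups, 2 each), reads were trimmed with Trim Galore, aligned to mm10 with STAR and quantified with RSEM on GENCODE annotation. The authors deposited 1 table of gene-level TPM per library. TPM keeps no depth, so no counting error could be given. Symbols and positions came from GENCODE M21 (GRCm38), where 55141 of 55401 IDs matched and 260 did not. The members and all gene lists were chosen with earlier results of these data known. Using limma 3.58.1 in R 4.3.3, log2(TPM + 1) of genes with a mean of at least 0.5 TPM was fitted over all 3 groups (lmFit, eBayes with trend; 3 residual and 3.103 prior degrees of freedom). Calls were made at an adjusted p under 0.01 and a fold over 2, and at 0.05 with no fold. A count model was not used because TPM are not counts. The steps were tested on simulated data with a large fold change set in more abundant genes, so smaller changes and low levels were not covered. The 6 values are given for members that passed in any contrast, had a mean of at least 10 TPM or were alone in their cluster past the filter; regulators and neighbours were named past 0.05 and a fold of 1.5, with 2 neighbours on each side of a called member, of which 1 is not reported here. Shared sequence of at least 200 bases was sought with blastn 2.17.0. Replicate numbers did not pair libraries. In all, 17 alternatives were run.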

Additional observations from a re-analysis of the deposited data

How the results depend on the processing

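Of 992 values of 25 named genes under 17 alternatives, 869 kept their direction and side of the threshold of 0.05, 98 no longer passed, 7 passed anew and 18 reversed. The total includes differences that had not passed in the main fit and could not lose a pass. All 98 losses lie among results that had passed, so 869 of 992 overstates how stable those were. In Rbbp4 OE, H19 lost its pass in 13 of 16 alternatives and Mest in 0 of 17. Rian in Rbbp7 OE lost it in 10 of 17. The count of members past the study's threshold in Rbbp4 OE, 3, was 1 with no filter, 5 with a mean of at least 5 TPM, and 0 with the replicate block, with only the 2 groups compared in the fit, and in all 6 fits without 1 library (0 to 0). The count of 1 in Rbbp7 OE was 0 with no filter, the replicate block or the 2 groups alone, and 0 to 0 without 1 library. At an adjusted p under 0.05 the count of 11 in Rbbp4 OE was 5 with the 2 groups alone and 2 to 10 without 1 library. The count of 4 in Rbbp7 OE was 1 with no filter, 1 with the replicate block, 0 with the 2 groups alone and 0 to 1 without 1 library. Between the lines the count of 0 was 1 (Meg3) under each of 2 corrections for GC content and transcript length, chosen after seeing the data. Fits with fewer libraries or with the block have fewer residual degrees of freedom. Over all genes the 73 called in Rbbp4 OE were 31 with a pseudocount of 5, 4 with no filter, 4 with the block, 1 with the 2 groups alone and 0 to 40 without 1 library. The 5 in Rbbp7 OE were 2 with no filter, 8 with a mean of at least 5 TPM, 0 with the 2 groups alone and 0 to 0 without 1 library, and the 7 between the lines were 4 with no filter and 0 to 42 without 1 library.

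The replicate block was an alternative because libraries share only a number. Deviations of same-numbered libraries correlated at -0.0263, 0.0336 and -0.0308 between pairs of groups. With the block, 9 members passed 0.05 in Rbbp4 OE and 1 in Rbbp7 OE.

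Reversals touched only differences that had not passed. Between the lines Mest was 0.028 after median-of-ratios scaling, 0.016 after quantile normalization and 0.023 after GC and length correction with the shift of the median removed. Zrsr1 was 0.057 and 0.058 after the same 2 scalings, 0.067 and 0.14 after the GC and length corrections, and -0.085 to 0.0086 without 1 library. Without 1 library in turn, Peg3 was -0.091 to 0.20 and Nnat -0.0077 to 0.60 in Rbbp4 OE, and Nnat was -0.0029 to 0.61, Trappc9 -0.043 to 0.072 and Impact -0.019 to 0.21 in Rbbp7 OE. Trappc9 was 0.022 and 0.054 in Rbbp4 OE after the 2 scalings, and -0.017 and -0.028 in Rbbp7 OE after the GC and length corrections. Except by construction of the smaller fits, the cause was not tested.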
